A study of Homo sapiens with 6 samples.

Results

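The genes described here are the coactivators CIITA and NLRC5 and the DNA-binding factors that they need at the promoters of the major histocompatibility complex (MHC). Members were taken by gene symbol: CIITA, NLRC5, the RFX complex (RFX5, RFXAP and RFXANK), the trimer NF-Y (NFYA, NFYB and NFYC) and CREB1. All 9 symbols were found once each among the 24580 rows of the deposited expression table, and all 9 were high enough to be tested among 14487 genes. The groups were LoVo-HM, labelled as a highly metastatic LoVo subline, and wild-type LoVo, a human colorectal cancer cell line. Neither group had a treatment, each had 3 libraries, and the RNA-seq values were FPKM, fragments divided by transcript length and by the mapped fragments of a library, which allows levels of different genes to be compared per length. The labels do not say how the subline was obtained or whether libraries came from separate cultures, so p-values measure the spread between these libraries, which may be technical.

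MHC class I molecules show peptides to cytotoxic T cells and class II molecules show peptides to helper T cells. Their promoters share a module of boxes: the RFX complex binds the X1 box, CREB1 or a relative binds the X2 box, and NF-Y binds the Y box, a reversed CCAAT sequence. CIITA and NLRC5 belong to the NLR family of nucleotide-binding, leucine-rich repeat proteins and do not bind these boxes by themselves. CIITA is recruited by the bound factors and is the switch for class II genes, whereas NLRC5 acts mainly on class I genes. Interferon-gamma raises both coactivators in many cell types, while the DNA-binding factors are widely expressed.

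Library totals were 424624 to 428265 FPKM in LoVo-HM, against 434108 to 439082 FPKM in LoVo. Pearson correlations of log2(FPKM + 1) over all rows were 0.995 within groups and 0.969 to 0.970 between groups. Of 13 markers of colorectal epithelium, 6 averaged under 0.5 FPKM in LoVo-HM and 7 in LoVo, and of the 7 that were tested 5 rose and 2 fell. A rise or fall here means a limma adjusted p under 0.05, reached by 44.9% of all tested genes, 21.8% higher and 23.1% lower. CDX1, VIL1 and GPA33 were listed at 0 in all 6 libraries, whereas EPCAM was at 51.7 ± 2.60 FPKM in LoVo-HM, against 128 ± 1.99 FPKM in LoVo (SD, n = 3 each). The squamous factor TP63 was at 0.296 ± 0.0605 FPKM in LoVo-HM, against 36.1 ± 1.71 FPKM in LoVo, and of 7 squamous markers 5 fell and 2 rose, with sums of 397 to 417 FPKM in LoVo-HM against 293 to 306 FPKM in LoVo. KRT5, a keratin of basal cells, made up most of the sum in LoVo-HM, at 395 ± 10.7 FPKM, against 39.9 ± 1.32 FPKM in LoVo. In both groups several defining colorectal markers were thus listed at 0 while squamous markers were present, which goes in part against the labelled cell type, and the identity of the lines and their relation to each other were not tested. Of 13 markers of stroma and T cells, 2 were high enough to test and 1 fell, with sums of 6.82 to 9.05 FPKM in LoVo-HM against 10.7 to 12.8 FPKM in LoVo. The part of these markers in the results was not tested. Of 16 markers of B cells, macrophages and dendritic cells, the blood cells that normally hold class II genes, 14 averaged under 0.5 FPKM in each group, and PTPRC, the common leukocyte marker, was listed at 0 in all 6 libraries. Those 16 markers summed to between 4.36 and 4.77 FPKM per LoVo-HM library, against 5.54 to 6.18 FPKM per LoVo library. Most of that sum came from CD68 and PAX5, the 2 that were tested, of which 1 fell. CD68 fell to 2.55 ± 0.265 FPKM in LoVo-HM, against 3.44 ± 0.0379 FPKM in LoVo (limma adjusted p = 0.0150). PAX5 was at 1.28 ± 0.0715 FPKM in LoVo-HM, against 1.66 ± 0.152 FPKM in LoVo, and did not pass (limma adjusted p = 0.0903). In bulk RNA, fewer cells that express a gene and less RNA per cell cannot be told apart.

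The boxes bound by these factors are short, and 6 promoters of target genes are shown as examples. They were chosen after the word search: 5 hold a pair of NF-Y words, among them that of the one class II gene that did not pass the test, and B2M holds an NF-Y and a CREB1 word. The stretches run 5′ to 3′ on the gene's strand from base -150 to base -31 relative to the RefSeq start (GRCh38.p14). Capitals mark the words CCAAT and its reverse ATTGG, the core of the NF-Y box, the word TGACG or its reverse, the core of the CREB1 box, and the word GCAAC or its reverse, found in RFX boxes. The first 3 promoters are of class II genes, at chr6:33075840-33075959 on the plus strand for HLA-DPB1 and, on the minus strand, chr6:32666688-32666807 for HLA-DQB1 and chr6:32817033-32817152 for HLA-DOB. The others are of class I genes, at chr6:31357210-31357329 for HLA-B and chr6:31272123-31272242 for HLA-C, both on the minus strand, and chr15:44711367-44711486 on the plus strand for B2M.
HLA-DPB1: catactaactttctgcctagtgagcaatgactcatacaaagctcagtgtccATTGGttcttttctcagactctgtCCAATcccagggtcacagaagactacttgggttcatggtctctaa
HLA-DQB1: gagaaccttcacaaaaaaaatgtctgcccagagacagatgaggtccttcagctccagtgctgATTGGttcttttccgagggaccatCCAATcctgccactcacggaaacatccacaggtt
HLA-DOB: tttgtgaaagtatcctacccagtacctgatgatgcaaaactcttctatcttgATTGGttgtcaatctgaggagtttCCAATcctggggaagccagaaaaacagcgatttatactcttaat
HLA-B: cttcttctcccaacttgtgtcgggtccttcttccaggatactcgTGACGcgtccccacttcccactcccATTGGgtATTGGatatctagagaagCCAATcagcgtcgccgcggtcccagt
HLA-C: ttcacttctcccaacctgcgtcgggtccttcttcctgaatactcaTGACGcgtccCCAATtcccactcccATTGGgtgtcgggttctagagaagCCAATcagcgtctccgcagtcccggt
B2M: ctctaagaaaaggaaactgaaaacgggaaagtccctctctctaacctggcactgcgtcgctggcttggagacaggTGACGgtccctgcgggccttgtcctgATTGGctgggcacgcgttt

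In those 5 stretches an ATTGG was followed by a CCAAT on the same strand, 24 bases from start to start in HLA-DPB1, HLA-DQB1, HLA-DOB and HLA-C and 25 bases in HLA-B. This spacing was looked for after the sequences were seen, and it was present in 3 of 12 promoters of class II genes, which are the 3 printed, in 3 of 14 of class I genes and in 61 of all 35116 promoters (0.174%). The promoters of CD74 and TAP1, for example, did not hold the pair at this spacing. The windows searched for words ran from 250 bases before each start to 50 bases after it, with some genes having more than 1 start. CCAAT on either strand was found in 5 of 12 promoters of the 6 members with an entry, 10 of 12 of class II genes and 7 of 14 of class I genes, against 34.6% of all promoters. TGACG on either strand was found in 4 of 12 member, 6 of 12 class II and 6 of 14 class I promoters, against 24.6% of all promoters. GCAAC on either strand was found in 4 of 12 member, 5 of 12 class II and 2 of 14 class I promoters, against 33.6% of all promoters. A strict run was defined as GCAAC, then the reverse of TGACG, then ATTGG, with gaps of 1 to 9 and 10 to 25 bases. It was found in 0 of the 35116 promoters, which do not include that of HLA-DRA, the class II gene without an entry. These are letter matches, not measured binding.

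LoVo-HM was set against LoVo to ask whether the factors of this promoter module differ between the lines labelled as metastatic subline and wild type. Both coactivators and the RFX5 subunit were lower in LoVo-HM, and NFYA and CREB1 were higher. Of the 9 genes, 5 passed the threshold (limma on log2(FPKM + 1), Benjamini-Hochberg adjusted p under 0.05), 3 lower and 2 higher. Among all tested genes 44.9% passed, 23.1% lower and 21.8% higher, so the share of members that passed was near that background. For 6 of the 9 genes every LoVo-HM library lay on one side of every LoVo library, against 55% of tested genes. The median log2 difference (LoVo-HM minus LoVo, used throughout) was 0.11 over the 9 genes and 0.003 over all tested genes. By log2 difference CIITA had the rank 48 from the lowest among 14487 genes, while NLRC5 had the rank 580 and RFX5 the rank 1320.

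**Figure D1:**
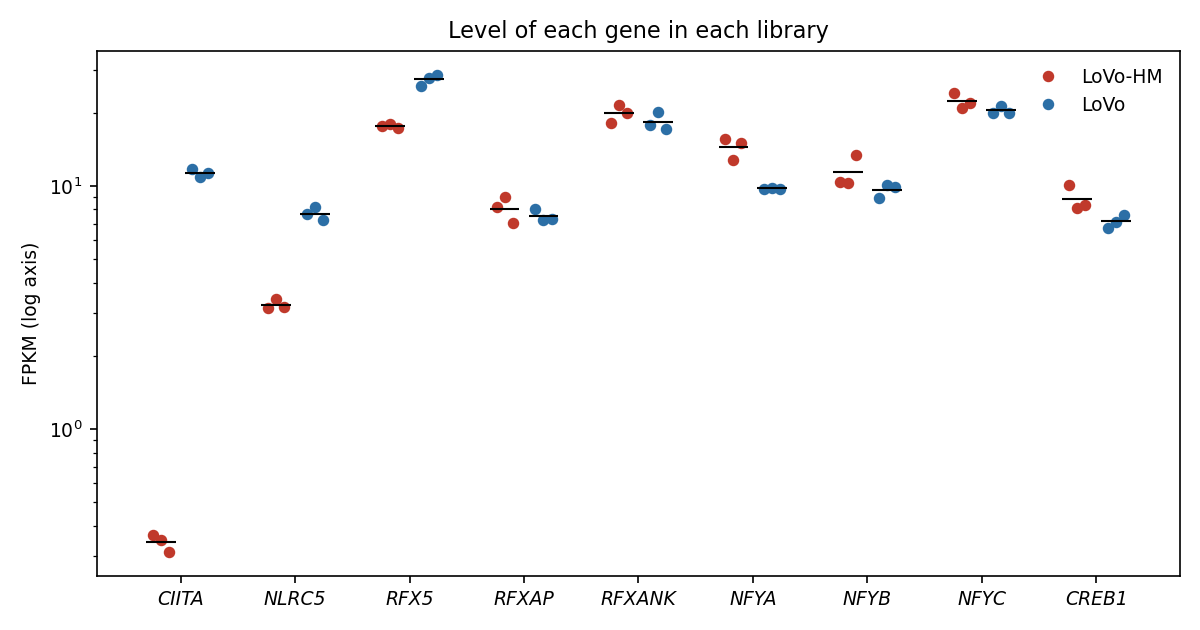
FPKM (log axis) of the 9 genes in each of 3 LoVo-HM (left, red) and 3 LoVo (right, blue) libraries, with black lines at the means. CIITA lies between 0.312 and 0.366 FPKM in LoVo-HM and between 10.9 and 11.8 FPKM in LoVo, and RFXAP, RFXANK and NFYC overlap between the groups.

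CIITA (ENSG00000179583, GRCh38 chromosome 16, 10866222 to 10943021, plus strand), the class II transactivator, stood at 0.366, 0.350 and 0.312 FPKM in the LoVo-HM libraries and at 11.8, 10.9 and 11.3 FPKM in the LoVo libraries. The groups were far apart, and every LoVo-HM library held a low value above 0. The mean was 0.343 ± 0.0274 FPKM in LoVo-HM, against 11.3 ± 0.445 FPKM in LoVo (SD, n = 3 each). The mean in LoVo-HM was thus 3.02% of the mean in LoVo, a ratio of 33.1 between LoVo and LoVo-HM. The log2 difference was -3.20 ± 0.078 (SE, limma adjusted p = 9.74e-09). It was -4.69 with a pseudocount of 0.1, since a pseudocount of 1 shrinks the change of a gene this low in 1 group. GENCODE 29 gives 8 protein-coding CIITA transcripts with 6 starts over 55945 bases, and the gene-level FPKM does not separate these starts. Read depth is unknown, so no counting interval can be given for the low values.

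NLRC5 (ENSG00000140853, chromosome 16, 56989485 to 57083531, plus strand), the class I transactivator, stood at 3.15, 3.43 and 3.17 FPKM in LoVo-HM, against 7.70, 8.16 and 7.22 FPKM in LoVo. Here too the groups did not overlap, but LoVo-HM kept 42.2% of the LoVo mean. The log2 difference was -1.03 ± 0.076 (SE, limma adjusted p = 1.03e-05). The order of the 2 coactivators differed between the groups. CIITA was at 0.116, 0.102 and 0.0987 times the level of NLRC5 in the LoVo-HM libraries and at 1.53, 1.34 and 1.57 times it in the LoVo libraries. CIITA was thus below NLRC5 in all 3 LoVo-HM libraries and above it in all 3 LoVo libraries.

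**Figure D2:**
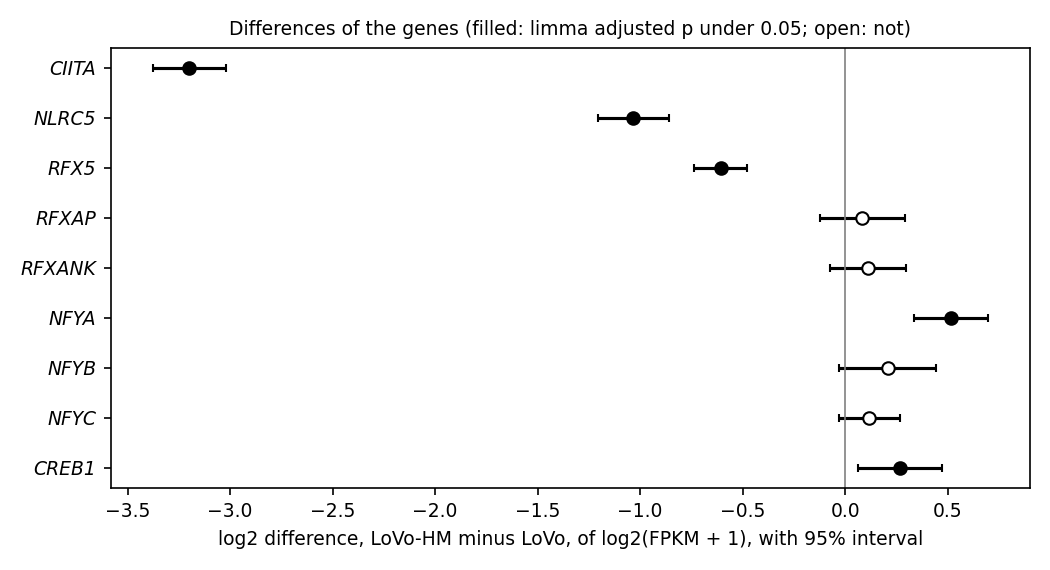
Log2 difference (LoVo-HM minus LoVo) of log2(FPKM + 1) for each gene, with the 95% interval from limma; filled points passed an adjusted p of 0.05. CIITA lies at -3.20, NLRC5 at -1.03 and RFX5 at -0.61, and the 6 other genes lie between 0.08 and 0.52.

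RFX5 (ENSG00000143390, chromosome 1, 151340640 to 151347357, minus strand), the winged-helix subunit that gives the RFX complex its contact with the X1 box, fell. It was at 17.7, 18.02 and 17.2 FPKM in LoVo-HM, against 25.8, 27.8 and 28.7 FPKM in LoVo. The lowest LoVo library was well above the highest LoVo-HM library, and the log2 difference was -0.61 ± 0.057 (SE, limma adjusted p = 4.77e-05). RFXAP (ENSG00000133111, chromosome 13, 36819224 to 36829104, plus strand), an accessory subunit, was at 8.23, 8.96 and 7.03 FPKM in LoVo-HM, against 8.03, 7.27 and 7.32 FPKM in LoVo. Those ranges overlapped, and its difference of 0.08 had a 95% interval of -0.12 to 0.29 (limma adjusted p = 0.484). RFXANK (ENSG00000064490, chromosome 19, 19192229 to 19201869, plus strand), the ankyrin repeat subunit, was at 18.2, 21.5 and 20.04 FPKM in LoVo-HM, against 17.8, 20.1 and 17.2 FPKM in LoVo. Its ranges overlapped as well, with a difference of 0.11 and an interval of -0.07 to 0.30 (limma adjusted p = 0.292).

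The 3 RFX subunits together were at 45.7 ± 2.49 FPKM in LoVo-HM, against 53.3 ± 1.80 FPKM in LoVo (SD, n = 3 each), with no overlap between libraries. The make-up of that sum also differed. RFX5 was 38.7 ± 1.47% of it in LoVo-HM and 51.4 ± 2.22% in LoVo, and RFXANK was 43.6 ± 2.08% in LoVo-HM and 34.4 ± 2.09% in LoVo. RFX5 was thus the most abundant subunit transcript in every LoVo library, and RFXANK in every LoVo-HM library. RFXAP had the lowest level of the 3 in all 6 libraries.

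**Figure D3:**
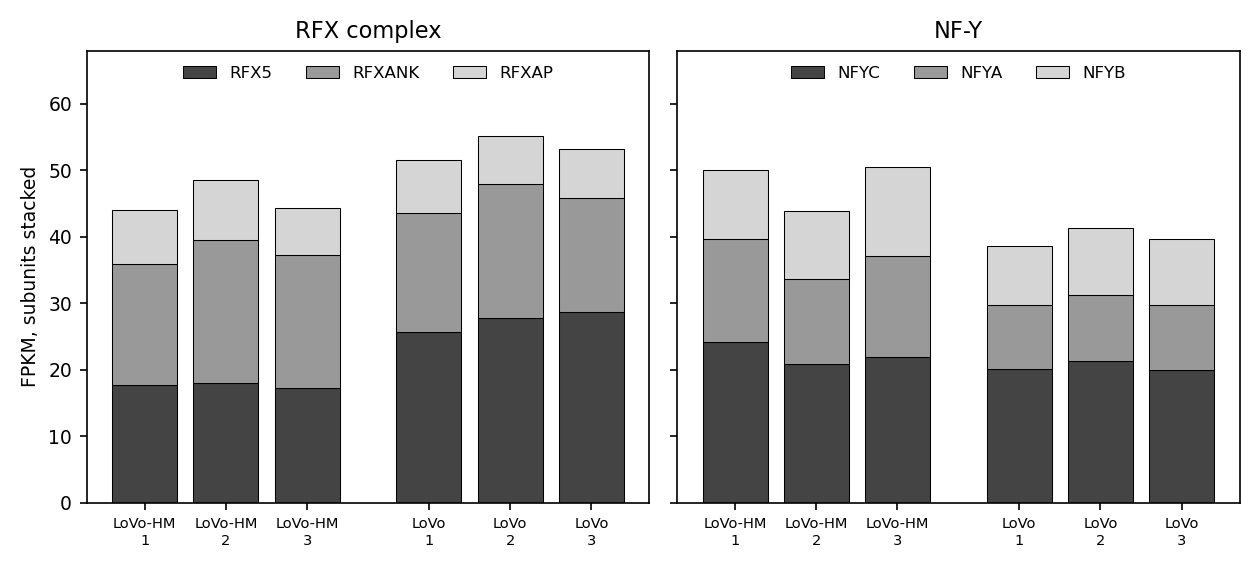
FPKM of the subunits of the RFX complex (left panel) and of NF-Y (right panel), stacked, in each LoVo-HM and LoVo library. The RFX sum is 44.1 to 48.5 FPKM in LoVo-HM and 51.6 to 55.2 FPKM in LoVo, and the NF-Y sum is 43.9 to 50.5 FPKM in LoVo-HM and 38.7 to 41.3 FPKM in LoVo.

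NF-Y binds CCAAT boxes as a trimer of a sequence-reading subunit, NFYA, and a histone-fold pair, NFYB and NFYC. NFYA (ENSG00000001167, chromosome 6, 41072945 to 41099976, plus strand) rose, at 15.6, 12.7 and 15.1 FPKM in LoVo-HM, against 9.72, 9.82 and 9.76 FPKM in LoVo. The 3 LoVo values were nearly the same, and all 3 LoVo-HM values lay above them. The log2 difference was 0.52 ± 0.079 (SE, limma adjusted p = 0.000837). NFYB (ENSG00000120837, chromosome 12, 104117077 to 104138289, minus strand) was at 10.4, 10.3 and 13.4 FPKM in LoVo-HM, against 8.93, 10.1 and 9.94 FPKM in LoVo. The groups just missed each other, 1 LoVo-HM library stood above the others, and the difference of 0.21 did not pass (interval -0.03 to 0.44, limma adjusted p = 0.136). NFYC (ENSG00000066136, chromosome 1, 40691648 to 40771603, plus strand) was at 24.1, 20.8 and 22.0 FPKM in LoVo-HM, against 20.1, 21.4 and 19.9 FPKM in LoVo. Its groups overlapped, with a difference of 0.12 (interval -0.03 to 0.27, limma adjusted p = 0.178).

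The summed NF-Y level was 48.2 ± 3.69 FPKM in LoVo-HM, against 39.9 ± 1.33 FPKM in LoVo (SD, n = 3 each), and the libraries of the groups did not overlap. NFYA was 29.98 ± 1.03% of the sum in LoVo-HM and 24.5 ± 0.692% in LoVo. NFYC was the most abundant of the 3 subunits in all 6 libraries, at 46.4 ± 2.51% in LoVo-HM and 51.3 ± 0.855% in LoVo.

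CREB1 (ENSG00000118260, chromosome 2, 207529737 to 207603431, plus strand), a leucine zipper factor that answers cyclic AMP signalling and binds the X2 box, was at 10.1, 8.13 and 8.35 FPKM in LoVo-HM, against 6.72, 7.13 and 7.62 FPKM in LoVo. The groups did not overlap, and the highest value was that of LoVo-HM replicate 1. The difference of 0.27 ± 0.090 passed narrowly (SE, limma adjusted p = 0.0393). The call was lost without LoVo-HM replicate 1 (difference 0.18, limma adjusted p = 0.126), without LoVo replicate 1 (0.23, limma adjusted p = 0.116), without LoVo replicate 2 (0.27, limma adjusted p = 0.0900) and without a filter on low values (0.27, limma adjusted p = 0.0732).

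Within LoVo-HM the mean levels ran, from high to low, NFYC, RFXANK, RFX5, NFYA, NFYB, CREB1, RFXAP, NLRC5 and CIITA. The ranges of libraries overlapped for the neighbours NFYC and RFXANK, NFYA and NFYB, and CREB1 and RFXAP, and not for the other neighbours. Within LoVo the order was RFX5, NFYC, RFXANK, CIITA, NFYA, NFYB, NLRC5, RFXAP and CREB1. There the overlapping neighbours were NFYC and RFXANK, NFYA and NFYB, NLRC5 and RFXAP, and RFXAP and CREB1. CIITA was therefore ranked 4 of 9 in LoVo, above NFYA and below RFXANK, and 9 of 9 in LoVo-HM.

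Genes of the class II and class I lists differed in the same comparison, though whether this module reads each of them was not tested. Since each list was chosen with results of these data known, the lists are given as counts. Of 12 class II genes, all tested, 11 fell and 1 did not pass, while 23.1% of all tested genes fell. The median log2 difference was -4.74, against 0.003 over all tested genes. CD74, the invariant chain, had 7.62 ± 0.268 FPKM in LoVo-HM, against 606 ± 18.9 FPKM in LoVo, a log2 difference of -6.14. HLA-DQB1, one of the promoters printed above, had 7.70 ± 0.0772 FPKM in LoVo-HM, against 162 ± 3.73 FPKM in LoVo (-4.23). The member that did not pass was HLA-DOB, a chain of the class II modulator DO, singled out after its values were seen. It had 4.06 ± 0.629 FPKM in LoVo-HM, against 4.85 ± 0.665 FPKM in LoVo (-0.21 ± 0.120 SE, limma adjusted p = 0.185). Its promoter holds the pair of words with the spacing also found in HLA-DPB1 and HLA-DQB1. HLA-DPB1 had 0.430 ± 0.133 FPKM in LoVo-HM, against 62.1 ± 0.2503 FPKM in LoVo (-5.47). Transcripts of HLA genes share reads with close relatives, so the value of each is uncertain, while CD74 has no close copy.

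Of 12 class I genes 11 were tested and all 11 fell, while 23.1% of all tested genes fell. The median log2 difference was -1.25. HLA-B, a class I heavy chain, had 89.5 ± 2.15 FPKM in LoVo-HM, against 511 ± 9.14 FPKM in LoVo (-2.50). TAP1, a subunit of the peptide transporter, had 14.04 ± 0.508 FPKM in LoVo-HM, against 45.1 ± 1.74 FPKM in LoVo (-1.62). HLA-E, which presents leader peptides to natural killer cells, had 31.3 ± 0.210 FPKM in LoVo-HM, against 74.4 ± 2.17 FPKM in LoVo (-1.22). Of the other printed promoters, HLA-C had 93.8 ± 5.79 FPKM in LoVo-HM, against 265 ± 22.6 FPKM in LoVo (-1.49). B2M, the light chain of class I molecules, had 18.3 ± 2.11 FPKM in LoVo-HM, against 29.8 ± 3.84 FPKM in LoVo (-0.68). HLA-G was listed at 0 in all 6 libraries.

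**Figure D4:**
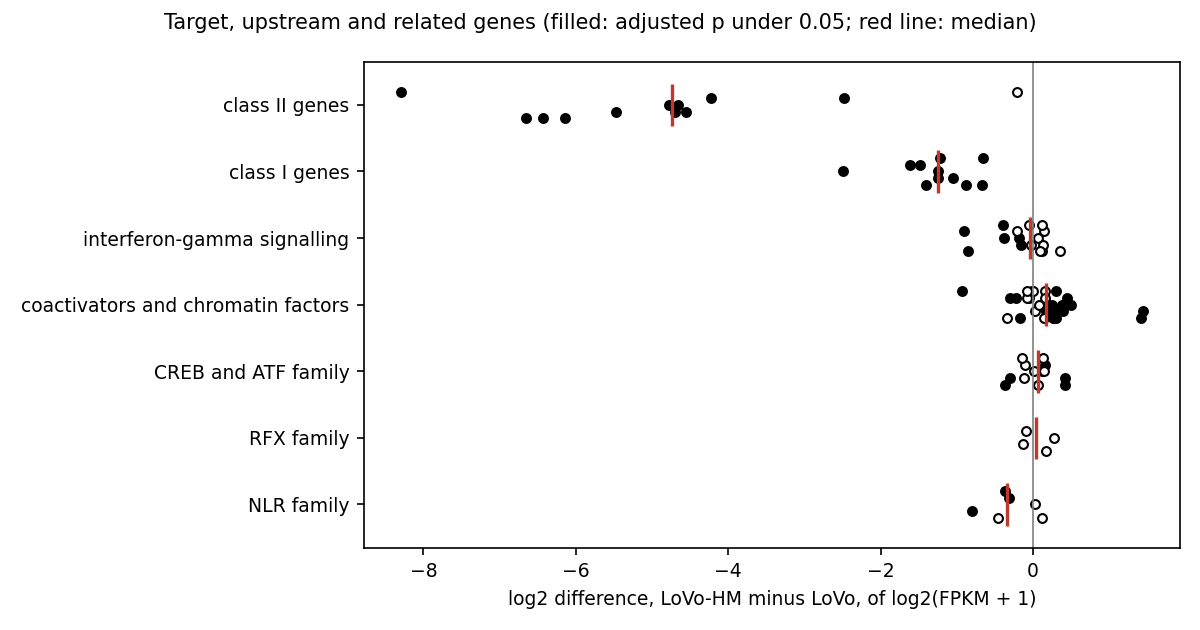
Log2 difference (LoVo-HM minus LoVo) of log2(FPKM + 1) for each tested gene of 7 lists of presumed target, upstream and related genes. Filled points passed a limma adjusted p of 0.05 and red lines are list medians. The median is -4.74 for class II genes and -1.25 for class I genes, and between -0.35 and 0.17 for the 5 other lists.

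Interferon-gamma acts through a receptor of IFNGR1 and IFNGR2 and the kinases JAK1 and JAK2, and the pathway induces the factor IRF1, which in turn acts on the CIITA gene. Of 19 genes of this signalling list 16 were tested, of which 6 fell, 0 rose and 10 did not pass, with a median of -0.04. Among all tested genes 44.9% passed, 23.1% lower and 21.8% higher. The share of the list that passed was near that background, but here all its calls were falls. With totals rescaled, with quantile normalization and without LoVo-HM replicate 2 the count that rose was 1 in each case. IFNG itself was listed at 0 in all 6 libraries. IFNGR1, the ligand-binding chain, fell to 26.9 ± 0.813 FPKM in LoVo-HM, against 49.6 ± 1.24 FPKM in LoVo (-0.86 ± 0.048 SE, limma adjusted p = 1.62e-06). IRF2, which acts with IRF1 at the interferon-gamma responsive CIITA promoter, fell to 5.51 ± 0.281 FPKM in LoVo-HM, against 11.2 ± 0.329 FPKM in LoVo (-0.91 ± 0.066 SE, limma adjusted p = 9.11e-06). Smaller falls included those of STAT3 (-0.39), IRF1 (-0.39) and IFNGR2 (-0.16), with limma adjusted p-values between 0.00167 and 0.0404. IRF1 was at 6.10 ± 0.321 FPKM in LoVo-HM, against 8.29 ± 0.615 FPKM in LoVo. The kinases JAK1 (26.4 ± 1.66 FPKM in LoVo-HM, 24.3 ± 0.216 FPKM in LoVo) and JAK2 (1.47 ± 0.135 FPKM in LoVo-HM, 1.51 ± 0.0730 FPKM in LoVo) did not pass.

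Histone acetylases, chromatin remodellers and silencing enzymes act at the CIITA gene or at MHC promoters in published work. Of 32 such genes, all tested, 17 rose, 4 fell and 11 did not pass, with a median of 0.17, while 21.8% of all tested genes rose and 23.1% fell. KAT2B, the acetylase also known as PCAF, rose to 12.7 ± 0.932 FPKM in LoVo-HM, against 4.08 ± 0.431 FPKM in LoVo (1.44 ± 0.086 SE, limma adjusted p = 2.74e-06). PRDM1 (Blimp-1), a zinc finger repressor that silences CIITA in plasma cells, rose to 10.02 ± 0.864 FPKM in LoVo-HM, against 3.12 ± 0.390 FPKM in LoVo (1.42 ± 0.095 SE, limma adjusted p = 5.63e-06). EZH2, the Polycomb methyltransferase of histone H3, rose to 94.2 ± 1.10 FPKM in LoVo-HM, against 71.7 ± 1.69 FPKM in LoVo (0.39). The genes that fell were SMARCA2, a remodelling ATPase (-0.93), TAF7, a subunit of the general factor TFIID (-0.30), KAT2A, an acetylase related to KAT2B (-0.17), and the DNA methyltransferase DNMT3B (-0.23), the last named after its value was seen. SMARCA2 was at 5.73 ± 0.0928 FPKM in LoVo-HM, against 11.8 ± 0.535 FPKM in LoVo.

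The genes next to the coactivators on chromosome 16 did not share their size of change. DEXI starts 76.2 kb from the CIITA start, on the opposite strand and overlapping CIITA, and rose to 12.8 ± 0.875 FPKM in LoVo-HM, against 8.55 ± 0.525 FPKM in LoVo (0.53 ± 0.073 SE, limma adjusted p = 0.000472). NUBP1 fell by 0.35 on the log2 scale and CLEC16A did not pass (-0.12, limma adjusted p = 0.119), while TEKT5 and TVP23A were too low to test. Around NLRC5, HERPUD1 fell to 11.6 ± 0.905 FPKM in LoVo-HM, against 18.5 ± 1.38 FPKM in LoVo (-0.63 ± 0.077 SE, limma adjusted p = 0.000232). FAM192A fell (-0.47), RSPRY1 rose (0.39), CPNE2 did not pass (-0.11, limma adjusted p = 0.155), and SLC12A3 and CETP were too low to test. The 7 other members had 60 neighbours within 250 kb, of which 15 were too low to test. Of the rest 10 rose, 8 fell and 27 did not pass. These counts are near the background, where 21.8% of all tested genes rose and 23.1% fell. The strand setting of the counting is not given in the sources used here, so reads of genes that overlap on opposite strands may be mixed. Among protein-coding genes this touches CIITA with DEXI, RFXANK with BORCS8 and NR2C2AP, NFYA with OARD1, and CREB1 with METTL21A. Antisense genes or pseudogenes, whose values were not used here, also overlap CIITA, NLRC5, RFX5, NFYB, NFYC and CREB1 on the opposite strand.

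**Figure D5:**
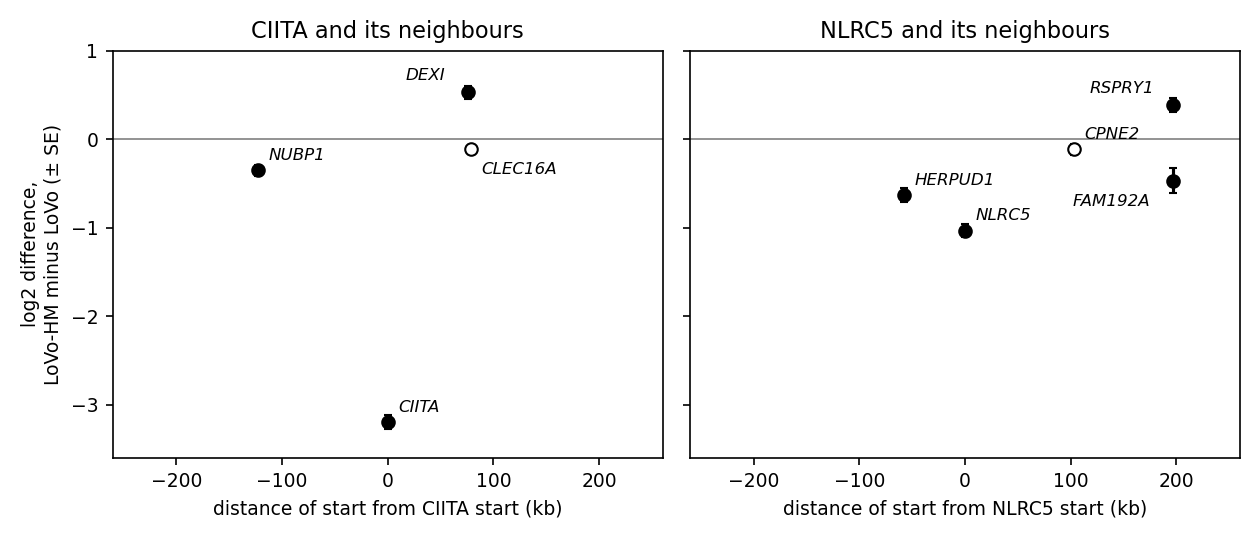
Log2 difference (LoVo-HM minus LoVo, ± SE) of CIITA, NLRC5 and the tested protein-coding genes whose starts lie within 250 kb, by distance of the start in kb; filled points passed a limma adjusted p of 0.05. CIITA at -3.20 and NLRC5 at -1.03 lie below all tested neighbours, which range from -0.63 to 0.53.

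The genes whose profile over the 6 libraries was most like that of CIITA were found by the root mean square difference of log2(FPKM + 1) after centring each gene. They were SPINK6 (0.066 log2 units), a protease inhibitor of skin, GPX2 (0.080), a glutathione peroxidase of gut epithelium, SERPINB5 (0.087), a serpin of basal epithelium, SLC9A2 (0.091), a sodium and proton exchanger, and COL17A1 (0.0998), a hemidesmosomal collagen. For NLRC5 they were FAM83F (0.021), ASS1 (0.047), an enzyme of arginine synthesis, TIMP3 (0.048), a metalloproteinase inhibitor, PSMB8 (0.049), an immunoproteasome subunit of the class I list, and SPAG1 (0.054). With 2 groups this measure mostly ranks genes by how near their group difference is to that of CIITA or NLRC5. GPX2, for example, was at 0.354 ± 0.0536 FPKM in LoVo-HM, against 11.3 ± 0.795 FPKM in LoVo, and PSMB8 at 26.9 ± 1.07 FPKM in LoVo-HM, against 56.6 ± 2.41 FPKM in LoVo.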

How the data were processed

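Per the labels' protocols, total RNA came from a Trizol extraction and the TruSeq RNA kit of Illumina was used for the 6 libraries. The authors deposited 1 table of FPKM values, 1 column per library, and the submitters' processing notes name GRCh38. Not given in the sources used here are aligner, counter, annotation, strand setting and depth. Among 1554 low genes the commonest 0.05 log2 bin of ratios between 2 libraries held 2.96% of them, so no steps of 1 read were found. Values were used as deposited. Genes averaging 0.5 FPKM or more across all 6 libraries entered the test on log2(FPKM + 1) with limma 3.58.1 (R 4.3.3), an intensity trend and two-sided moderated tests, adjusted by Benjamini-Hochberg over all 14487 genes. Of 19974 Ensembl identifiers, all 19974 matched GENCODE 29, which gave the positions. Promoter sequences are RefSeq's (GRCh38.p14), found for 6 of the 9 members, 11 of 12 class II and 10 of 12 class I genes. TTCNNNGAA, a STAT word, was found in 1 of 12 member, 1 of 12 class II and 2 of 14 class I promoters, and in 7.66% of all. The members and lists were chosen with earlier results of these data known. All members were named, and of each list the 4 smallest p-values, up to 3 genes called against the list's majority and all called interferon-gamma genes, apart from some that are not reported here. The fit was tested on simulated data. The 16 alternatives are given in the closing section.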

Additional observations from a re-analysis of the deposited data

How the results depend on the processing

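The 16 alternatives were pseudocounts of 0.1 and 0.5, no filter, a minimum mean of 2 FPKM, quantile normalization, median-ratio scaling, rescaling of totals, variance without a trend or with robust estimates, a replicate block, and leaving out each library. All 9 members kept their direction in all 16, and 8 kept their side of the threshold. CREB1 (0.27) lost its call without a filter (limma adjusted p = 0.0732), with the replicate block (0.27, limma adjusted p = 0.0619) and without 3 of the single libraries, with differences from 0.18 to 0.32 over the 6 omissions (limma adjusted p = 0.0349 to 0.126). The numbers do not pair the samples: deviations of same-numbered libraries correlated at -0.007, 0.022 and 0.026, and not every library correlated best with its own number. The block gave 6459 genes past the threshold, against 6508 without it, and changed no call of another member; the interferon-gamma list then had 2 higher and 5 lower. Over all alternatives CIITA ranged from -4.69 to -3.17, NLRC5 from -1.22 to -0.95, RFX5 from -0.65 to -0.57 and NFYA from 0.47 to 0.60. With a library left out, 4 or 5 members and 5484 to 5986 genes passed. Counts of 11 class II and 11 class I genes were the same in all 16. Called genes ranged from 1 to 4 in the NLR family, 0 to 2 in the RFX family, 3 to 6 in the CREB and ATF family, 0 to 2 among antigen-presenting cell markers and 1 to 3 among stromal and T cell markers; the cause was not tested. The unknown depth limits the low values, above all CIITA in LoVo-HM.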

Other observations

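Relatives of these factors were measured in the same libraries. Among other NLR proteins, which include sensors of bacterial wall fragments, 6 of 20 were tested, of which 3 fell and 3 did not pass, with a median log2 difference of -0.35. Among all tested genes 44.9% passed, 23.1% lower and 21.8% higher. The share of the family that passed was near that background. All 3 calls were falls, but the count ranged from 1 to 4 over the 16 alternatives, so no direction of the family is read from them. NLRP2 was at 0.0952 ± 0.127 FPKM in LoVo-HM, against 0.929 ± 0.385 FPKM in LoVo (-0.80 ± 0.172 SE, limma adjusted p = 0.00532). It reached the filter of 0.5 FPKM only through its LoVo values, so its call could hardly be other than a fall. With a minimum mean of 2 FPKM the family had 2 calls, both falls. NLRX1, a mitochondrial NLR protein, fell (-0.32 ± 0.079 SE, limma adjusted p = 0.0106), as did the peptidoglycan sensor NOD1 (-0.38 ± 0.104 SE, limma adjusted p = 0.0178), while NOD2 did not pass (-0.47 ± 0.183 SE, limma adjusted p = 0.0674).

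Of the 7 other RFX factors 4 were tested and 0 passed (limma), while 44.9% of all tested genes passed. RFX3, a factor of ciliated cells, was at 2.89 ± 0.444 FPKM in LoVo-HM, against 2.21 ± 0.393 FPKM in LoVo, and RFX7 at 7.57 ± 0.496 FPKM in LoVo-HM, against 8.16 ± 0.430 FPKM in LoVo. At an unadjusted p under 0.05 the count was also 0. Quantile normalization gave 2 higher, and 1 was higher without LoVo-HM replicate 3 and without LoVo replicate 1. Of 14 relatives and partners of CREB1, 13 were tested, of which 3 rose, 2 fell and 8 did not pass. That share of calls was near the background of 44.9%. The 5 calls became 3, 2 higher and 1 lower, without LoVo-HM replicate 1, without LoVo replicate 1 or without LoVo replicate 3. ATF1, a close relative of CREB1, rose to 30.5 ± 1.90 FPKM in LoVo-HM, against 22.7 ± 1.38 FPKM in LoVo (0.41 ± 0.066 SE, limma adjusted p = 0.00107). ATF2 (0.42) and CREBZF (0.16) also rose, and CREB3L2 (-0.37) and CREB3L4 (-0.31) fell.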
